A study of Mus musculus with 26 samples.

Results

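The 10 genes described here encode C-type lectin receptors of the DCIR and Dectin type, cell-surface proteins with which myeloid cells bind sugars and other ligands of microbes and damaged cells. They were chosen by symbol from a fixed list of 10 names, out of 23420 gene symbols in the deposited table, and all 10 were found and tested. The list was drawn up with earlier results of these data known, so its call counts are descriptions. The 5 activating lectins were set apart from 3 inhibitory ones. The activating group holds Clec7a (Dectin-1), Clec4n (Dectin-2), Clec4d (MCL), Clec4e (Mincle) and Clec9a (DNGR-1). The inhibitory group holds Clec4a2 (DCIR1), Clec4a4 (DCIR2) and Clec12a (MICL), and Clec4a1 (DCIR4) and Clec4a3 (DCIR3) were placed in neither group.

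The study profiled RNA from 5 kinds of mouse antigen-presenting cell in 26 libraries and 10 groups, each kind from mTOR ΔAPC animals (called KO here) and from wild-type littermates (WT). CD8a dendritic cells (DC) and CD11b DC came from spleen, with 2 WT and 2 KO libraries each. CD11b DC and alveolar macrophages from untreated lung, and inflammatory DC from lungs exposed to house dust mite extract, had 3 WT and 3 KO libraries each. Mice of the inflammatory DC groups, WT and KO alike, were given 25 µL of extract at 1 mg/mL into the nose over a course that the sample labels end at day 17 and the protocol at day 18. The sources used here give neither the promoter that drives the deletion, nor the mice's age, nor whether libraries were pools of animals. They do not state that the libraries of a group came from separate animals, so p-values measure the spread between these libraries, which may be technical.

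Dectin-1 carries a cytoplasmic motif through which it engages the kinase Syk after binding fungal beta-glucans, and DNGR-1, which binds the exposed actin of dead cells, uses a like motif. Dectin-2, MCL and Mincle signal through the adaptor FcR gamma chain, the product of Fcer1g; Dectin-2 binds fungal mannans and glycans of house dust mite, and Mincle and MCL bind mycobacterial glycolipid. DCIR1, DCIR2 and MICL carry inhibitory motifs that recruit phosphatases and restrain such signals, and myeloid cells of one tissue can hold both kinds.

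All 10 genes lie on mouse chromosome 6 (GRCm38, GENCODE annotation), in 2 clusters. The first runs from Clec4a1, on the plus strand at 122921848 to 122934619, through Clec4a3, Clec4a4, Clec4a2, Clec4n and Clec4d to Clec4e, on the minus strand at 123281789 to 123289870. The second holds Clec12a, Clec9a and Clec7a, the last on the minus strand at 129461591 to 129472779 and annotated as a polymorphic pseudogene. Exons of Clec9a overlap those of its neighbour Clec1b by 184 bases on the same strand. Of the 50-base words of Clec4a2 and Clec4a4 transcripts, 6.83% and 15.7% occur in another gene, for both genes including each other, so values of these 3 genes are uncertain to that extent.

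Of the 4 lectins that were higher in KO lung CD11b DC, 3 have an upstream sequence in the RefSeq table (GRCm38.p6), and these are shown because the 3 genes rose together: Clec4d and Clec4e are neighbours and Clec7a lies in the other cluster. Each run is the 250 bases before the start site, 5′ to 3′ on the gene's own strand, with motif matches in capitals. Clec4d is at chr6:123261857-123262106 (plus strand), Clec4e at chr6:123289872-123290121 (minus strand) and Clec7a at chr6:129472780-129473029 (minus strand).
Clec4d: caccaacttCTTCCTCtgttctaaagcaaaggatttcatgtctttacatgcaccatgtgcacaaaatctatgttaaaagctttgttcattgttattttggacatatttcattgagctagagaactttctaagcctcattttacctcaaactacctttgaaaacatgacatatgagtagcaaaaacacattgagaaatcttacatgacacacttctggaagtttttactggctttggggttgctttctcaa
Clec4e: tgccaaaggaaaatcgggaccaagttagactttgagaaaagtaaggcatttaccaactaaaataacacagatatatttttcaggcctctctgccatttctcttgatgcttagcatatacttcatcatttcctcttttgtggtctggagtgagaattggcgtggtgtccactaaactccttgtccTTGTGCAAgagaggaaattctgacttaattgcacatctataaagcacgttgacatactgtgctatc
Clec7a: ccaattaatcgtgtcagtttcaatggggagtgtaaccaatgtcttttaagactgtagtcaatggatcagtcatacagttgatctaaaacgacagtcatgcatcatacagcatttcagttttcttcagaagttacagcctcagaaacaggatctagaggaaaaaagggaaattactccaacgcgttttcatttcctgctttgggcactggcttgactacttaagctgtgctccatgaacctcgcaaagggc
Altogether 5 patterns were searched on both strands: GAGGAAG (ETS/PU.1), the interferon-stimulated response element, TGANTCA (AP-1), TTGCNNAA (C/EBP) and CACGTG (the E-box of the MiT/TFE factors). Clec4d holds the ETS/PU.1 letters on the opposite strand from base -241, a pattern in 10.6% of the 32851 windows of that length. Clec4e holds the C/EBP letters, also on the opposite strand, from base -66, a pattern present in 9.56% of windows. The Clec7a window holds none of the 5 patterns, and no pattern occurs in all 3 windows.

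Library depth ran from 7.37 to 14.1 M recovered reads. Values are normalized counts, the authors' reads per gene divided by a size factor per library. Mtor transcripts fell in KO spleen CD8a DC, spleen CD11b DC, lung CD11b DC and alveolar macrophages, with log2 fold changes of -2.93, -2.36, -0.70 and -2.02 (adjusted p from 5.27e-08 to 0.0205), and were lower by a log2 fold change of -0.74 in inflammatory DC (adjusted p = 0.0668). Y-linked transcripts were present in 14 libraries: all KO libraries of spleen and alveolar macrophages but no WT library of these cells, 1 KO lung CD11b DC library (replicate 1) and all 6 inflammatory DC libraries. In 7 of the 14, Xist transcripts were present as well. In spleen and alveolar macrophages, sex and genotype therefore cannot be told apart. Within a group, the presence of Y-linked transcripts varied only among KO lung CD11b DC libraries. A model term for it, the Y-linked term below, is set by replicate 1 of that group. It therefore does not measure sex in the other cell types. Of the labelled cell types, inflammatory DC carried little of the dendritic cell genes Flt3 (20.1 to 170.1) and Zbtb46 (26.4 to 111.1), while 13 alveolar macrophage markers summed to between 439872 and 1188050 in those libraries, mostly from Chi3l3. Spleen CD8a DC carried Xcr1 and Cd8a at 6034 or more in every library. The 15 measured red pulp macrophage markers summed to 40833 and 68750 in WT spleen CD8a DC and to 12682 and 16581 in WT spleen CD11b DC. Of these markers, 13 were called higher and 1 lower in WT CD8a DC. The part of such transcripts in WT lectin levels, such as that of Clec4n, was not tested.

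In WT cells the activating lectins differed in level between cell types. Clec7a was highest in inflammatory DC (mean 41869 ± 3643 SD, n = 3), followed by alveolar macrophages (18414 ± 842), lung CD11b DC (4905 ± 889), spleen CD11b DC (1985 ± 302, n = 2) and spleen CD8a DC (478 ± 118), with no overlap between neighbours in that order. Clec4n was highest in alveolar macrophages (5187 ± 72.8), then inflammatory DC (2985 ± 1430), spleen CD8a DC (616 ± 298), lung CD11b DC (525 ± 43.2) and spleen CD11b DC (198 ± 68.8); the ranges of spleen CD8a and lung CD11b DC overlapped. Dectin-1 and Dectin-2 transcripts were thus both most abundant in lung cells, in a different order.

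Clec4d and Clec4e were almost absent from spleen. Clec4d had at most 5 reads in any WT spleen library and normalized counts of 50.8 to 241.1 in WT lung cells. Clec4e had 0 reads in both WT spleen CD8a DC libraries and 28 and 30 reads in WT spleen CD11b DC, which was at least 9-fold higher when a count of 3 reads per library was taken as the floor of the former. Its WT lung means were 505 ± 114 in CD11b DC, 595 ± 32.9 in alveolar macrophages and 457 ± 185 in inflammatory DC, and each neighbouring pair overlapped. Clec9a had the reverse distribution: 5036 and 4545 in WT spleen CD8a DC, then 195 ± 47.5 in spleen CD11b DC, 115 ± 41.4 in lung CD11b DC, 78.3 ± 18.8 in inflammatory DC and 31.9 ± 7.14 in alveolar macrophages, with overlap only between lung CD11b DC and inflammatory DC. DNGR-1 is a known marker of cross-presenting DC, the kind of cell that the CD8a label names.

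Among the inhibitory lectins, Clec4a4 was concentrated in WT spleen CD11b DC at 1659 and 1982, against 94.2 and 93.3 in spleen CD8a DC and 7.59 to 50.9 in the 9 WT lung libraries. Clec4a2 ran upward from 215 ± 66.9 in spleen CD8a DC through spleen CD11b DC (746 ± 107), lung CD11b DC (940 ± 121) and alveolar macrophages (1327 ± 39) to inflammatory DC (2391 ± 353), without overlap between neighbours. Clec12a was highest in lung CD11b DC (2383 ± 64.9) and spleen CD8a DC (2166 ± 119), lower in inflammatory DC (983 ± 107), and overlapped between alveolar macrophages (648 ± 43) and spleen CD11b DC (648 ± 142). The 3 inhibitory lectins thus each had a different cell type at the top. Of the remaining pair, Clec4a3 followed the order of Clec4a2, from 344 ± 109 in spleen CD8a DC to 7568 ± 222 in inflammatory DC, while Clec4a1 was highest in lung CD11b DC (1042 ± 78.4) and lowest in alveolar macrophages (32 ± 11.2).

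The tests between WT cell types, by limma over 13311 genes, gave many calls both for the lectins and for all genes. Between spleen CD8a and CD11b DC, 3 lectins were higher in CD8a DC and 6 lower, where 12.2% of all genes were called higher and 10.8% lower (23.0% in either direction). Between lung and spleen CD11b DC, 7 were higher in lung and 2 lower (all genes 21.1% higher, 13.8% lower, 34.9% in either direction), among them Clec4e (log2 fold change 4.24 ± 0.29 SE, adjusted p = 6.95e-11) and, lower, Clec4a4 (-5.20 ± 0.39, adjusted p = 2.95e-10). Alveolar macrophages against lung CD11b DC gave 4 higher and 4 lower (all genes 24.0% higher, 27.2% lower, 51.2% in either direction), and inflammatory against lung CD11b DC gave 5 higher and 2 lower (all genes 23.7% higher, 23.8% lower, 47.5% in either direction); these last 2 comparisons share the WT lung CD11b DC libraries, and inflammatory DC differ from lung CD11b DC in the mite extract too. Clec7a was higher than in lung CD11b DC in both, by 1.92 ± 0.15 (adjusted p = 9.37e-11) and 3.11 ± 0.15 (2.90e-13), and Clec12a lower in both, at -1.88 and -1.28. Some of these calls rested on 1 library. That of Clec4n in CD8a against CD11b spleen DC was lost without CD8a WT replicate 2 (1.08, adjusted p = 0.0808) or CD11b WT replicate 1 (1.23, 0.0620). In lung against spleen CD11b DC, Clec4n was lost without spleen replicate 1 (1.09, adjusted p = 0.0587), Clec9a without spleen replicate 1 (-0.57, 0.328), spleen replicate 2 (-1.07, 0.0589) or lung replicate 3 (-0.47, 0.243), and Clec4a1 without spleen replicate 2 (0.63, 0.229), lung replicate 1 (0.83, 0.0528) or lung replicate 3 (0.77, 0.0627). In inflammatory against lung CD11b DC, Clec4a1 was lost without lung replicate 3 (-0.67, adjusted p = 0.0630) or inflammatory replicate 1 (-0.58, 0.107), and Clec4d without lung replicate 3 (1.31, 0.0738) or inflammatory replicate 3 (1.26, 0.0886). The medians of the 10 log2 fold changes were -1.58, 1.37, 0.38 and 0.58 in these 4 comparisons, where those of all genes were 0.00, 0.01, -0.01 and -0.01.

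**Figure D1:**
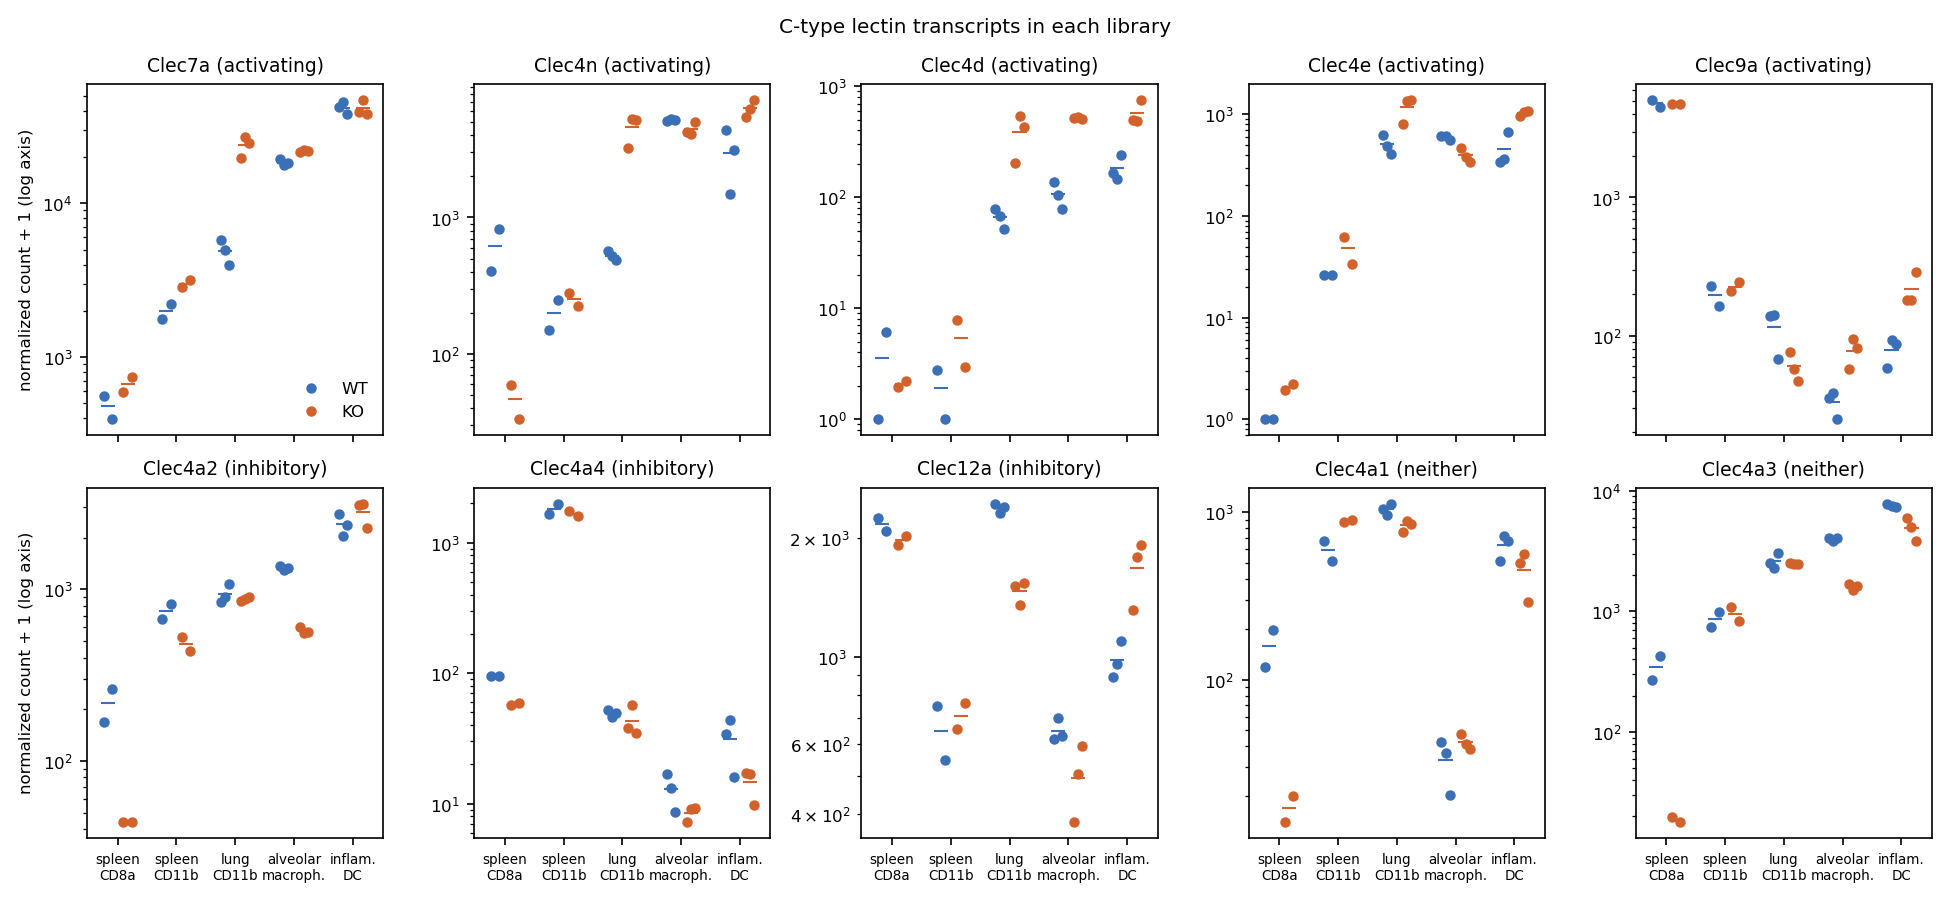
Normalized count plus 1 (log axis) of each lectin in each library, by cell type, with WT in blue and KO in orange; points are libraries and short lines are means. Clec4n, Clec4d, Clec4e and Clec7a sit higher in every KO than in every WT lung CD11b DC library, and Clec4a1, Clec4a2, Clec4a3 and Clec4n sit lower in both KO than in both WT spleen CD8a DC libraries.

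The KO change differed from cell type to cell type. In lung CD11b DC, 4 of the 10 lectins rose and 2 fell, where 12.0% of all genes were called higher and 14.0% lower (26.1% in either direction). Spleen CD8a DC showed 4 that fell and 0 that rose, where 1.50% of genes were called higher and 3.63% lower (5.13% in either direction). At an unadjusted p under 0.05, limma had 2 lectins higher there, Clec7a and Clec4e, while edgeR and DESeq2 called 0 higher. Of these, Clec4e had 0 reads in both WT libraries and 1 read in each KO library, too few for a fold. In alveolar macrophages 2 rose and 2 fell (10.5% of genes higher, 6.39% lower, 16.9% in either direction), and in inflammatory DC 4 rose and 1 fell (1.45% higher, 1.92% lower, 3.37% in either direction). In spleen CD11b DC limma called 0 of 10 (1.28% of genes higher, 0.233% lower, 1.52% in either direction), while edgeR called 0 and DESeq2 called 2. At an unadjusted p under 0.05, limma had 4, among them Clec4d, which had at most 6 reads in any of these libraries.

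The median log2 fold change of the 10 lectins was -0.49 in spleen CD8a DC, 0.30 in spleen CD11b DC, -0.08 in lung CD11b DC, -0.33 in alveolar macrophages and 0.50 in inflammatory DC, beside medians of all genes between -0.05 and 0.02. Without the lectins that had at most 3 reads in every library of either genotype, the spleen medians were -1.48 over 8 lectins in CD8a DC (Clec4d and Clec4e left out) and 0.22 over 9 in CD11b DC (Clec4d left out). Fewer cells of a type and less RNA per cell cannot be told apart in these bulk libraries.

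**Figure D2:**
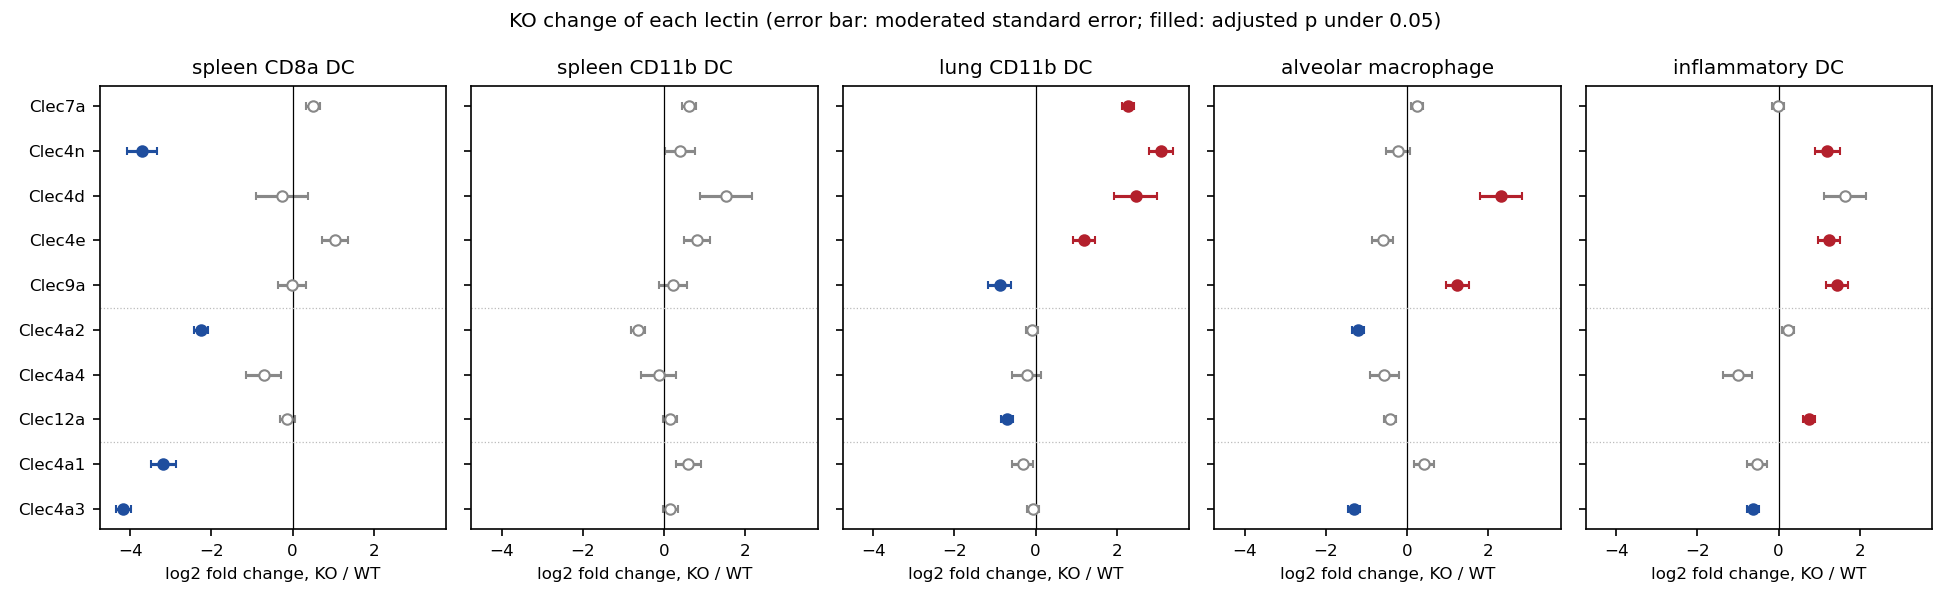
Log2 fold change of KO over WT for each lectin in each cell type, from limma on log2(normalized count + 1), with the moderated standard error as the bar; filled points passed the adjusted p threshold of 0.05 (red higher, blue lower) and open points did not. Dotted lines part activating, inhibitory and other lectins from top to bottom; 4 of the 5 activating lectins are filled red in lung CD11b DC.

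Clec7a, the beta-glucan receptor, rose in KO lung CD11b DC. The 3 WT libraries held 5741, 5003 and 3970 normalized counts and the 3 KO libraries 19713, 26999 and 24705. Every KO library was far above every WT library, and KO values lay at the level of alveolar macrophages, overlapping the KO macrophage range of 21601 to 22155. The log2 fold change was 2.28 ± 0.15 (SE, adjusted p = 3.76e-10), or 4.87-fold. In the other cell types Clec7a did not pass the test: the log2 fold changes were 0.50 in spleen CD8a DC (adjusted p = 0.117), 0.61 in spleen CD11b DC (0.0945), 0.25 in alveolar macrophages (0.291) and -0.01 ± 0.15 in inflammatory DC (0.996). The spleen CD8a DC value was 0.75 (adjusted p = 0.0320) without WT replicate 1. The spleen CD11b DC difference passed with sample weights (adjusted p = 0.0123), in DESeq2 (0.0302) and with only these groups in the model (0.0148). The alveolar macrophage difference passed with only these groups in the model (adjusted p = 0.00821) and with sample weights (0.0361).

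Clec4n rose in 2 cell types and fell in another. Lung CD11b DC went from 570, 521 and 484 in WT to 3219, 5296 and 5197 in KO, a log2 fold change of 3.09 ± 0.30 (adjusted p = 7.87e-08). Inflammatory DC went from 4339, 1489 and 3128 in WT to 5484, 6207 and 7191 in KO (log2 fold change 1.20 ± 0.30, adjusted p = 0.0244). The ranges did not overlap in either cell type, but WT replicate 2 of inflammatory DC lay well below the other WT libraries.

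Without that library the inflammatory DC change was 0.76 (adjusted p = 0.150), and the call was also lost without KO replicate 2 (1.20, 0.0818) or KO replicate 3 (1.10, 0.112), and with only these groups in the model (1.20, 0.0617). Clec4n fell in spleen CD8a DC, from 405 and 827 in WT to 58.6 and 32.4 in KO, by 3.70 on the log2 scale (SE 0.37, adjusted p = 1.82e-07). Alveolar macrophages held high Dectin-2 transcript levels in both genotypes, 5109 to 5253 in WT and 4108 to 4990 in KO (-0.23 ± 0.30, adjusted p = 0.706; 0.0312 with only these groups in the model). The ranges overlapped in spleen CD11b DC (0.38, adjusted p = 0.792).

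Clec4d, whose product MCL partners Mincle, rose in 2 lung cell types. Lung CD11b DC held 78, 66.6 and 50.8 in WT and 201.5, 536.8 and 425.6 in KO (log2 fold change 2.46 ± 0.52, adjusted p = 0.00114). Alveolar macrophages went from 137.1, 104.9 and 78.1 to 518.5, 530.5 and 510.7 (2.31 ± 0.52, adjusted p = 0.00244). Both KO ranges lay wholly above WT, narrowly spread in macrophages and widely in DC, where KO replicate 1 was the lowest.

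WT inflammatory DC held 165.4, 146.1 and 241.1 counts of Clec4d and KO cells 497.0, 484.2 and 745.6. These ranges did not overlap either, but limma gave 1.64 ± 0.52 with an adjusted p of 0.0897; edgeR (1.65, adjusted p = 0.00464) and DESeq2 (1.64, adjusted p = 5.05e-05) called it. In the spleen no library held more than 6 reads of Clec4d, too few to detect a change.

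Clec4e, encoding Mincle, rose in lung CD11b DC and inflammatory DC. Lung CD11b DC held 629, 482 and 404 in WT and 797, 1342 and 1372 in KO (log2 fold change 1.19 ± 0.26, adjusted p = 0.00152; with sample weights 1.04, adjusted p = 0.0574). Inflammatory DC went from 337, 364 and 670.4 to 963, 1048 and 1075 (1.24 ± 0.26, adjusted p = 0.00766). The groups were separate in both cell types, with WT replicate 3 the nearest to KO in inflammatory DC. The inflammatory DC call was lost without WT replicate 1 (1.06, adjusted p = 0.0646).

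Alveolar macrophages went the other way in Clec4e, from 617, 612 and 557 in WT to 467, 377 and 339 in KO, without overlap, but the difference did not pass the test (-0.60 ± 0.26, adjusted p = 0.125). It passed with only these groups in the model (adjusted p = 0.00156) and with sample weights (0.0115). With the Y-linked term, which is set by KO lung CD11b DC replicate 1 and by no macrophage library, it turned to 0.16. Clec4e in spleen CD8a DC was listed at 0 in both WT libraries and had 1 read in each KO library, both below the floor of 3 reads, so no fold is given. Spleen CD11b DC held 25.1 and 25.4 (WT) against 60.7 and 33 (KO) (0.80, adjusted p = 0.266).

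Clec9a was high in spleen CD8a DC of both genotypes, WT at 5036 and 4545 and KO at 4723 and 4706 (log2 fold change -0.02 ± 0.35, adjusted p = 1.00). Low levels moved in the lung. In inflammatory DC it rose from 56.9, 92 and 86.1 to 179.1, 179.1 and 289.2 (1.44 ± 0.28, adjusted p = 0.00517), and in alveolar macrophages from 34.3, 37.5 and 23.9 to 56.6, 94.1 and 80.4 (1.24 ± 0.28, adjusted p = 0.00291). Neither pair of ranges overlapped, and all KO values stayed far below the spleen CD8a DC level.

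The cross-presenting DC gene Xcr1 was at 6.63 to 34 in inflammatory DC and 2.69 to 36.9 in alveolar macrophages, with the highest value of each in a WT library. Clec1b, which shares exon bases with Clec9a, had log2 fold changes of -0.84 (adjusted p = 0.668) and 0.34 (0.814) in the same comparisons. The part of cross-presenting DC or of Clec1b reads in the Clec9a changes was not tested. With a term for Y-linked transcripts in the model, the macrophage change of Clec9a was 0.68 (adjusted p = 0.414). That term is set by KO lung CD11b DC replicate 1, so this value is not a sex adjustment within macrophages. In lung CD11b DC Clec9a fell from 137.6, 139.6 and 66.9 to 75.6, 56.6 and 45.9 (-0.89 ± 0.28, adjusted p = 0.0231), with WT replicate 3 inside the KO range. That call was lost without WT replicate 1 (-0.72, adjusted p = 0.104), WT replicate 2 (-0.71, 0.111), KO replicate 2 (-0.87, 0.0570) or KO replicate 3 (-0.72, 0.101), and with only the 2 groups in the model (-0.89, 0.203).

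The changes in lung CD11b DC stood beside changes in genes that mark cell types. The 9 measured markers of CD11b-type DC summed to between 63047 and 70508 in WT and between 25345 and 35398 in KO, with 3 of 9 called lower. Cd209a, a lectin of that DC type, was at 26777, 24081 and 21723 in WT and 8547, 3558 and 2176 in KO, and the DC cytokine receptor Flt3 went from between 1844 and 3066 to between 217 and 1071. The 6 general DC markers that include Flt3, 3 called lower and 1 higher, summed to 12291 to 16670 in WT and 16234 to 19340 in KO. The monocyte gene Ly6c2 went from between 53.9 and 176.5 to between 2569 and 3659, while 12 monocyte markers together summed to 46915 to 53659 in WT and 41803 to 46301 in KO, with 4 called higher and 1 lower. Of 13 alveolar macrophage markers 7 were called lower and 1 higher (sums of 4780.4 to 8656 in WT and 3841 to 5363 in KO), and of 8 plasmacytoid DC markers 3 were called higher (1245.5 to 1577 and 2252 to 2627). The 15 measured red pulp macrophage markers, 4 called higher and 3 lower, summed to 38893 to 42128 in WT and 49353 to 60738 in KO. Fcgr1, of the monocyte list, went from between 143.8 and 378.1 to between 1180 and 1865. The part of these genes in the lectin results was not tested. KO replicate 1, the library with Y-linked transcripts, had the lowest KO values of Clec7a, Clec4n, Clec4d and Clec4e; without it their log2 fold changes were 2.41, 3.32, 2.88 and 1.45.

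Of the inhibitory lectins, Clec4a2, encoding DCIR1, fell in alveolar macrophages and in spleen CD8a DC. The macrophage values were 1367, 1289 and 1324 in WT and 602, 557 and 566 in KO (log2 fold change -1.20 ± 0.15, adjusted p = 2.49e-06). WT spleen CD8a DC held 168 and 262.5 and KO cells 42.8 and 43.2 (-2.26 ± 0.18, adjusted p = 8.33e-09). All KO libraries were below all WT libraries in both cell types. Spleen CD11b DC of WT mice held 671 and 822, those of KO mice 527 and 433; the difference of -0.64 ± 0.18 missed the threshold (adjusted p = 0.0895), and passed it with sample weights (0.0136), in DESeq2 (0.0328) and with only these groups in the model (0.0369). In lung CD11b DC (-0.09) and inflammatory DC (0.24) the ranges overlapped.

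Clec12a, encoding MICL, moved in opposite directions in 2 kinds of lung DC. It fell in lung CD11b DC from 2442, 2314 and 2394 to 1509, 1354 and 1535 (log2 fold change -0.70 ± 0.15, adjusted p = 0.00109). In inflammatory DC it rose from 889, 961 and 1099 to 1314, 1792 and 1916 (0.75 ± 0.15, adjusted p = 0.00491). Neither pair of ranges overlapped. Alveolar macrophages held 618, 698 and 629.9 (WT) against 379.6, 503.6 and 592.0 (KO), which at -0.42 ± 0.15 did not pass (adjusted p = 0.0525) and did so without KO replicate 3 (-0.57, adjusted p = 0.0140). In spleen its changes were -0.13 in CD8a DC and 0.14 in CD11b DC (adjusted p = 0.818 and 0.871).

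Clec4a4, encoding DCIR2, passed the test in none of the 5 cell types by limma, and had only 7 to 14 reads a library in alveolar macrophages. Where it was abundant, in spleen CD11b DC, the WT values (1659 and 1982) and KO values (1729 and 1592) overlapped (log2 fold change -0.13 ± 0.43, adjusted p = 0.987). WT inflammatory DC held 32.9, 42.6 and 15 and KO cells 16.3, 15.9 and 8.8 (-1.01 ± 0.35, adjusted p = 0.130); DESeq2 called this difference (-1.11, adjusted p = 0.0307), as did limma without WT replicate 3 (-1.44, adjusted p = 0.0296).

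Clec4a3 and Clec4a1, which belong to neither group, fell together in spleen CD8a DC. Clec4a3 went from 267 and 422 in WT to 18.6 and 16.8 in KO (log2 fold change -4.17 ± 0.19, adjusted p = 6.18e-13), and Clec4a1 from 118 and 197 to 13 and 19.2 (-3.19 ± 0.31, adjusted p = 1.46e-07). In alveolar macrophages Clec4a3 fell from 4057, 3868 and 4040 to 1699, 1512 and 1625 (-1.31 ± 0.15, adjusted p = 1.26e-06), and the ranges lay far apart. Clec4a1 there was at 19.5 to 41.1 in WT and 37.5 to 46 in KO (0.42, adjusted p = 0.322).

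In inflammatory DC Clec4a3 fell from 7808, 7529 and 7368 to 5913, 5048 and 3858 (log2 fold change -0.64 ± 0.15, adjusted p = 0.0204), with KO replicate 3 the lowest. The call was lost without WT replicate 1 (-0.61, adjusted p = 0.0887), WT replicate 2 (-0.64, 0.0507), WT replicate 3 (-0.66, 0.0589), KO replicate 2 (-0.66, 0.0583) or KO replicate 3 (-0.47, 0.160). The 2 genes had, in lung CD11b DC, changes of -0.06 and -0.32, and in spleen CD11b DC of 0.15 and 0.59, none past the threshold.

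The 4 lectins that fell in spleen CD8a DC did so beside macrophage genes. The 15 measured markers of splenic red pulp macrophages summed to 40833 and 68750 in the WT libraries and 7955 and 8127 in the KO libraries, with 13 of 15 called lower. Spic, a transcription factor of those macrophages, went from 1460.3 and 1989.9 to 55.8 and 63.6, and the adhesion molecule gene Vcam1 from 7009.6 and 12464 to 1058 and 799.8. WT replicate 2 had the higher marker sum and the higher value of Clec4a1, Clec4a2, Clec4a3 and Clec4n. WT libraries held 6363 and 6377 counts of Xcr1, KO libraries 7809 and 7171. The part of the macrophage transcripts in the fall of the 4 lectins was not tested.

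**Figure D3:**
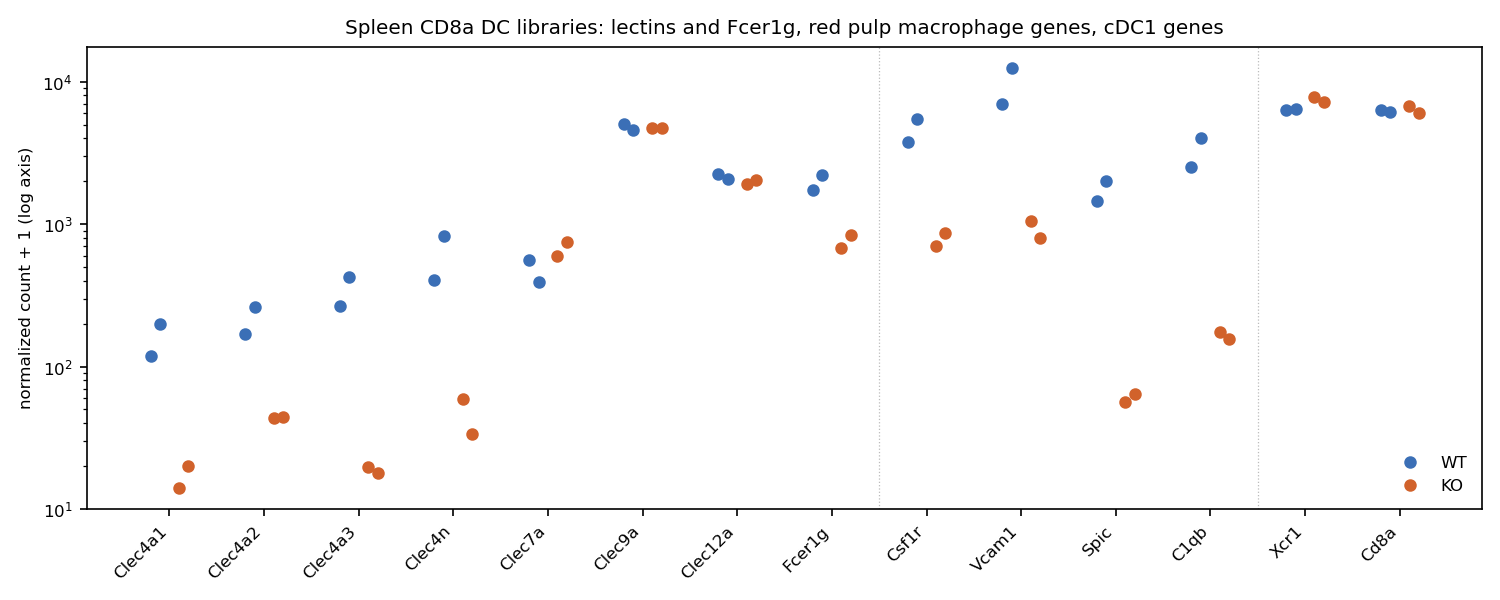
Normalized count plus 1 (log axis) of 7 lectins and Fcer1g, of 4 macrophage genes and of 2 CD8a DC genes in the 2 WT (blue) and 2 KO (orange) spleen CD8a DC libraries; each point is a library. Clec4a1, Clec4a2, Clec4a3, Clec4n and Fcer1g lie lower in KO together with Csf1r, Vcam1, Spic and C1qb, while Clec9a and Cd8a overlap between genotypes.

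In alveolar macrophages, 13 macrophage markers summed to between 345081 and 355688 in WT and between 212543 and 231685 in KO, with 4 called lower and 0 higher by limma. Car4 and Marco of that list went the other way without overlap, though not called. Car4 was at 5844 to 6627 in WT and 13387 to 16109 in KO, and Marco at 2444 to 2670 and 3242 to 3511. The 11 measured neutrophil markers summed to 1328 to 1416 in WT and 2247 to 2499 in KO, with 3 of 8 tested called higher and 1 lower; Elane was at 0 in every one of these libraries, Camp in the WT libraries and Mpo in the KO libraries. The 6 T cell markers, 4 called higher, summed to 15.2 to 17.1 in WT and 79.6 to 147.9 in KO, and the 6 natural killer cell markers, 3 called higher, to 7.73 to 17.1 and 57.6 to 136.2. Itgam, encoding CD11b, went from between 55.2 and 129.0 to between 1063 and 1777. Of 12 monocyte markers 6 were called higher and 1 lower (sums of 10444 to 12405 in WT and 13332 to 15663 in KO), and of 9 CD11b-type DC markers 4 were called higher and 0 lower by limma (28485 to 28925 and 25067 to 27169). The 6 general DC markers, 2 called higher, summed to 9565 to 9931 in WT and 17404 to 18889 in KO. In inflammatory DC the alveolar macrophage marker sum was 823682 to 1188050 in WT and 439872 to 1059774 in KO, with 6 of 13 called lower, while 6 general DC markers, 4 of them called lower and 1 higher, summed to 13242 to 18554 in WT and 25520 to 27235 in KO. The part of these transcripts in the changes of Clec4a2, Clec4a3, Clec4d and the other lectins was not tested.

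Levels of different lectins were compared per kilobase of exon. For each library, the mean log2(normalized count per kb + 1) of the 3 inhibitory lectins was taken from that of the 5 activating ones, and within each cell type the result was higher in every KO library than in every WT one. The lectins were chosen with earlier results of these data known, so this separation is a description and was not tested. The lung CD11b DC values were -0.12, -0.25 and -0.80 in WT and 1.29, 1.72 and 1.73 in KO, a difference of 1.97 with a pooled SD of 0.31. Alveolar macrophages went from 1.61, 1.63 and 1.65 to 3.07, 2.94 and 2.82 (difference 1.31, pooled SD 0.09), and inflammatory DC from 0.96, 0.77 and 1.59 to 2.03, 1.98 and 2.63 (1.11, pooled SD 0.40). The inflammatory DC difference rests in part on 2 low lectins. Their means per kb in WT and KO were 38.9 and 17.6 for Clec4a4 and 23.8 and 65.5 for Clec9a. Clec7a, the most abundant there, had a log2 fold change of -0.01. On this scale, which weighs each lectin of a group alike whatever its abundance, lung CD11b DC were below 0 in WT and above 0 in KO. The WT sign there depends on counting Clec9a, which was low in those libraries (20.3 to 42.4 per kb). The other lung cells were above 0 in both genotypes.

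The spleen cells were below 0 in both genotypes by this measure. Spleen CD8a DC had WT values of -1.86 and -1.55 and KO values of -1.28 and -1.38 (difference 0.38, pooled SD 0.17), and spleen CD11b DC had -3.48 and -3.62 for WT, -2.54 and -2.88 for KO (0.84, pooled SD 0.18). These 2 values rest in part on Clec4d and Clec4e, which had few or no reads there.

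As a share of the summed count per kb of all 10 lectins, the activating lectins made up 45.4%, 44% and 33.7% in WT and 77.1%, 82.7% and 81.8% in KO lung CD11b DC, and the inhibitory lectins 12.9%, 14.1% and 14.7% in WT and 4.69%, 3.49% and 3.8% in KO. By summed transcript the activating lectins thus exceeded the inhibitory ones in lung CD11b DC of both genotypes. Clec7a alone accounted for a mean of 31.7% in WT and 57.2% in KO, and Clec4n for 6.31% and 20.2%. Clec4a3 made up 33.6% of the WT sum and 12.1% of the KO sum, while its own log2 fold change was -0.06. Spleen CD8a DC were at 67.2% to 70.1% activating and 18.6% to 20.3% inhibitory in WT. In KO they were at 78.3% to 78.8% and 20.1% to 20.5%, so that this share and the mean of logs lay on opposite sides. Clec9a alone made up 48.4% and 65.5%. The activating sum per kb itself was lower in KO spleen CD8a DC (2027.3 and 2115.5 in WT, 1701.3 and 1735.3 in KO). The inhibitory sum was lower as well (585.8 and 586.4 in WT, 434.6 and 455.1 in KO). Spleen CD11b DC were at 19.6% and 21% activating and 57.6% and 58% inhibitory in WT, and at 25.8% and 28.9% and 48.1% and 46.9% in KO, with Clec4a4 alone at 49.8% and 41.8%. The lead of Clec4a4 depends on the length scaling, with 776 exon bases against 2638 for Clec7a. By normalized count Clec7a had the higher mean there (1984.6 against 1820.6 in WT, with overlap, and 3006.3 against 1660.5 in KO). The annotation behind the deposited counts is not given. Alveolar macrophages were at 74.8% to 75.1% activating in WT and 87.9% to 88.9% in KO, and inflammatory DC at 70.7% to 72.4% and 76.1% to 82.8%. The inhibitory share went from 4% to 4.13% in WT to 2.14% to 2.26% in KO macrophages. In inflammatory DC it was higher in KO as well, at 3.65% to 4.3% in WT and 4.6% to 5.14% in KO. Clec4a3, of neither group, went from a mean of 20.8% to 9.08% in macrophages and from 22.5% to 14.3% in inflammatory DC.

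**Figure D4:**
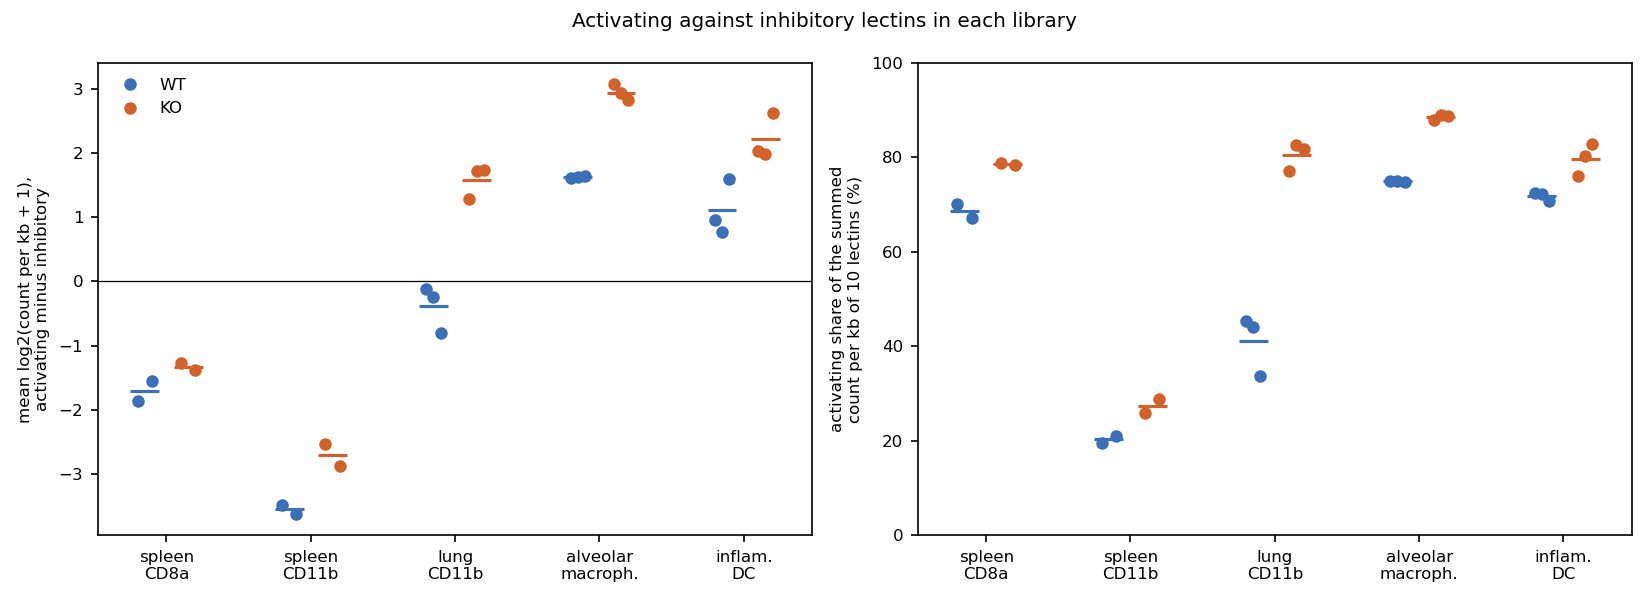
Left, mean log2(count per kb + 1) of the 5 activating minus that of the 3 inhibitory lectins; right, activating share (%) of the summed count per kb of 10 lectins; both by cell type, with each library a point (WT blue, KO orange) and the mean a line. KO libraries lie above WT libraries in all 5 cell types, though in spleen CD8a DC the activating sum itself was lower in KO. In inflammatory DC the inhibitory share (not drawn) was higher in KO as well. The lectins were chosen with earlier results of these data known, so this separation was not tested. On the left, lung CD11b DC cross 0, where the WT sign depends on counting Clec9a.

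**Figure D5:**
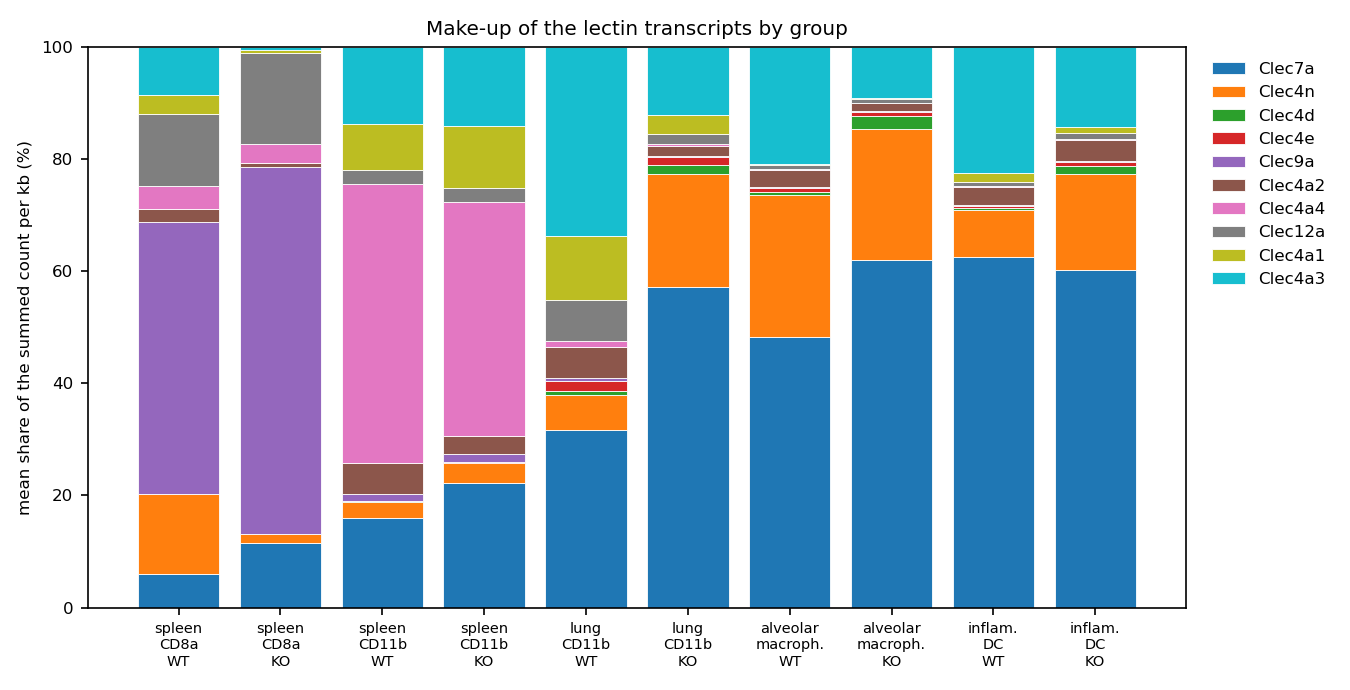
Mean share (%) of each lectin in the summed count per kb of the 10 lectins, for the 10 groups, as stacked bars that reach 100. Per kb, Clec9a leads in spleen CD8a DC and Clec4a4 in spleen CD11b DC, and Clec7a goes from 31.7% to 57.2% in lung CD11b DC. By normalized count without length scaling, the mean of Clec7a was above that of Clec4a4 in spleen CD11b DC.

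The KO changes were set against each other between cell types with the difference of the 2 changes as a term in the limma model. Mtor itself differed for lung against spleen CD11b DC (1.66 ± 0.34, adjusted p = 0.00308) and for macrophages against lung CD11b DC (-1.32 ± 0.31, 0.00439). It did not pass between the spleen cells (-0.57, adjusted p = 0.726) or for inflammatory against lung CD11b DC (-0.04, 0.960). The part of unequal Mtor loss in the lectin differences was not tested. Spleen CD8a DC differed from spleen CD11b DC for 4 lectins, all with the lower change in CD8a DC (all genes 0.195% higher, 2.25% lower, 2.45% in either direction), among them Clec4a3 (difference -4.33 ± 0.27, adjusted p = 4.57e-10). Lung differed from spleen CD11b DC for 3 lectins, 2 with the higher change in lung (all genes 5.86% higher, 6.60% lower, 12.5% in either direction): Clec7a at 1.68 ± 0.23 (adjusted p = 8.79e-05) and Clec4n at 2.70 ± 0.47 (adjusted p = 0.000781); the third, Clec12a (-0.85, adjusted p = 0.0188), was lost without spleen WT replicate 2 (-0.62, 0.157) or KO replicate 2 (-0.74, 0.104), and with the Y-linked term (-0.80, 0.122). Alveolar macrophages differed from lung CD11b DC for 6 lectins, 1 higher and 5 lower (all genes 10.2% higher, 6.60% lower, 16.8% in either direction), and inflammatory from lung CD11b DC for 4, 2 in each direction (all genes 6.08% higher, 6.95% lower, 13.0% in either direction). The difference of Clec4e between macrophages and lung CD11b DC (-1.80) lost its call with the Y-linked term (-1.29, adjusted p = 0.0573). That term is set by KO lung CD11b DC replicate 1, for Clec12a too. The last 2 comparisons share the lung CD11b DC libraries, and their values for Clec7a were -2.03 ± 0.21 and -2.30 ± 0.21 (adjusted p = 3.97e-07 and 3.52e-07). For Clec4d the change did not differ detectably between lung CD11b DC and macrophages (-0.15 ± 0.73, adjusted p = 0.924) or inflammatory DC (-0.82 ± 0.73, adjusted p = 0.519).

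The signalling partners of the lectins were described over a list of 27 adaptor, kinase, phosphatase and NF-kappaB pathway genes, all tested. In KO spleen CD8a DC 1 of 27 was called (all genes 1.50% higher, 3.63% lower, 5.13% in either direction). It was Fcer1g, the adaptor of Dectin-2, MCL and Mincle, which fell from 1738 and 2206 to 678 and 844 (log2 fold change -1.37 ± 0.14, adjusted p = 3.96e-07). Of these genes, 6 rose and 4 fell in lung CD11b DC (all genes 12.0% higher, 14.0% lower), led by Malt1, a scaffold protease downstream of CARD9 (1.54 ± 0.19, adjusted p = 1.94e-06), the kinase gene Prkcd (0.59), the kinase gene Src (2.42) and Relb, an NF-kappaB subunit (0.59). In alveolar macrophages 4 rose and 4 fell (all genes 10.5% higher, 6.39% lower), led by Malt1 (1.72 ± 0.19, adjusted p = 3.92e-07), with Nfatc2 also higher (1.58) and the kinase gene Fgr (-0.65) and Plcg2, a phospholipase (-0.63), lower. For spleen CD11b DC limma called 0 of 27 (all genes 1.52% in either direction), with 4 at an unadjusted p under 0.05 and 0 by edgeR or DESeq2.

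Fcer1g and Syk did not pass the test in lung CD11b DC, where Clec7a, Clec4n, Clec4d and Clec4e rose and Clec9a fell. The log2 fold changes of Fcer1g and Syk were 0.22 ± 0.12 (adjusted p = 0.172) and -0.26 ± 0.11 (0.101). In alveolar macrophages they were 0.17 and 0.01, in inflammatory DC 0.23 and -0.12, and in spleen CD11b DC -0.37 and 0.31, none past the threshold. Syk was at -0.41 in spleen CD8a DC (adjusted p = 0.0948). Median changes of the list lay between -0.12 and 0.06, where those of all genes were between -0.05 and 0.02.

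Of 20 genes known to be induced through these receptors, such as cytokines and early response genes, 19 were tested. In lung CD11b DC 6 rose and 1 fell (all genes 12.0% higher, 14.0% lower), led by Nos2, nitric oxide synthase (4.88 ± 0.81, adjusted p = 9.67e-05), the interleukin-12 subunit gene Il12b (1.73), the transcription factor gene Egr2 (0.88) and the chemokine gene Cxcl2 (1.89). In alveolar macrophages 5 rose and 2 fell (all genes 10.5% higher, 6.39% lower): the chemokine gene Ccl3 (2.02), Ptgs2, cyclooxygenase 2 (1.45), and Dusp4 (2.12) rose, while Il6 fell (-3.67, adjusted p = 2.96e-05). In spleen CD8a DC Il1a (-4.03) and Il10 (-3.97) fell and Egr2 rose (1.24) (all genes 1.50% higher, 3.63% lower), and in inflammatory DC Ccl3 rose (1.09, adjusted p = 0.0474; all genes 1.45% higher, 1.92% lower). For inflammatory DC edgeR called 0 and DESeq2 called 1 higher. For macrophages edgeR called 3 higher and 1 lower, and DESeq2 4 and 1. For lung CD11b DC they called 7 and 2, and 6 and 2. For spleen CD8a DC they called 1 and 2, and 2 and 2. Limma called 0 of 19 in spleen CD11b DC (all genes 1.52% in either direction), with 1 at an unadjusted p under 0.05, 0 by edgeR and 1 by DESeq2.

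Other lectin genes of the same gene complex and related families were described over 11 names, of which 9 were tested. In KO lung CD11b DC 2 rose and 3 fell (all genes 12.0% higher, 14.0% lower, 26.1% in either direction): Olr1, an oxidized lipoprotein receptor, rose (2.95 ± 0.37, adjusted p = 2.78e-06), as did Clec5a (1.77), while Clec4b1, which neighbours the DCIR genes, fell (-2.37 ± 0.31, adjusted p = 4.83e-06). In spleen CD8a DC Clec5a (-2.53), Clec4b1 (-2.58) and Clec1b (-3.61) fell (all genes 1.50% higher, 3.63% lower). Clec4b1 also fell in alveolar macrophages (-1.59), where Clec2i rose (2.18) (all genes 10.5% higher, 6.39% lower), and Clec5a rose in inflammatory DC (1.19, adjusted p = 0.0130, all genes 1.45% higher, 1.92% lower). For spleen CD11b DC limma called 0 of 9 (all genes 1.52% in either direction), with 1 at an unadjusted p under 0.05, 0 by edgeR and 1 by DESeq2.

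The pattern of each lectin over the 10 group means was compared with every tested gene by Pearson's r, as a description. The groups share libraries of 5 cell types, so these are 10 points that are not independent. Among the lectins, Clec4a2 and Clec4a3 were closest to each other (r = 0.974), followed by Clec7a with Clec4e (0.935) and Clec4d (0.930), and Clec4n with Clec4d (0.898). Clec9a ran against most of the others, down to r = -0.914 with Clec4e. Outside the family, the genes with the most similar patterns were Csf3r for Clec4a3 (0.986) and for Clec4a2 (0.959), Ier3 for Clec7a (0.985), Slc15a3 for Clec4n (0.969), Cxcl3 for Clec4d (0.986) and Slc16a3 for Clec4e (0.992). For Clec9a it was Dnmbp (0.990), for Clec4a4 Traf2 (0.978), for Clec4a1 Ip6k3 (0.969) and for Clec12a Ifnlr1 (0.961).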

How the data were processed

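RNA from 26 sorted cell samples was sequenced from Clontech and NexteraXT libraries, per the labels' protocols. Per the submitters' processing notes, STAR 2.3.1s, HTSeq, DESeq2 1.10.1 and mm10 were used; the annotation and strand setting are not given in the sources used here. Deposited signal values are a table of counts per gene symbol that the authors divided by a size factor per library. Steps in the low values gave back whole reads for 100% of values (tolerance 1e-06), and edgeR on these reads called 537, 148, 3382, 2123 and 449 genes in the KO comparisons of spleen CD8a DC, spleen CD11b DC, lung CD11b DC, alveolar macrophages and inflammatory DC. No 2 libraries of a group agreed within sampling noise (chi-square per degree of freedom of 2.99 or more).

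The main test was limma 3.58.1 (R 4.3.3) with a mean-variance trend on log2(normalized count + 1), with one mean per group over all libraries and Benjamini-Hochberg adjustment over the 13311 genes with a value of at least 10 in at least 2 libraries. A gene was called at an adjusted p under 0.05; fold changes on this scale understate those of low genes. edgeR 4.0.16 (quasi-likelihood), DESeq2 1.42.0, other pseudocounts and filters, sample weights, a Y-linked term, fits of only the groups compared and the omission of each library were alternatives. The script was tested on simulated data. Per-kb values divide by the union of exons (GRCm38, GENCODE). The text names all 10 lectins, Mtor, Fcer1g, Syk, up to 4 called signalling and output genes and 3 neighbouring lectins with the smallest p in a comparison, and the genes most like each lectin. The lectins, lists and tests were chosen with earlier results of these data known. The calls of the signalling list in inflammatory DC are not reported here.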

Additional observations from a re-analysis of the deposited data

Results flagged for a closer look

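For 10 lectins across 4 pairs of cell types, 17 differences between KO changes passed limma's test of the difference itself; each value is the log2 change in the first cell type minus that in the second. Spleen CD8a DC against spleen CD11b DC differed in Clec4a1 (-3.78), Clec4a2 (-1.63), Clec4a3 (-4.33) and Clec4n (-4.08); the 4 lectins fell in CD8a DC and none was called in CD11b DC. Lung against spleen CD11b DC differed in Clec4n (2.70), Clec7a (1.68) and Clec12a (-0.85). Alveolar macrophages against lung CD11b DC differed in Clec4a2 (-1.11), Clec4a3 (-1.24), Clec4n (-3.32), Clec4e (-1.80), Clec7a (-2.03) and Clec9a (2.13). With a term for Y-linked transcripts, Clec4e (-1.29, adjusted p = 0.0573) and, in the preceding pair, Clec12a (-0.80, 0.122) no longer passed. That term is set by KO lung CD11b DC replicate 1. Inflammatory against lung CD11b DC differed in Clec4n (-1.89), Clec7a (-2.30), Clec9a (2.33) and Clec12a (1.46), and for Clec12a the change was called in opposite directions in the 2 cell types. The KO change of Mtor itself differed too, by 1.66 for lung against spleen CD11b DC and by -1.32 for alveolar macrophages against lung CD11b DC.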

How the results depend on the processing

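The groups hold 2 or 3 libraries each, and sex-linked transcripts are confounded with genotype in 3 of 5 cell types. Low counts limit Clec4d and Clec4e in spleen and Clec4a4 in alveolar macrophages and KO inflammatory DC. Of 1165 log2 fold changes under other settings, 1106 kept direction and call, 13 lost the call, 30 gained one and 16 changed sign; of 890 with 1 library left out, 822 kept both, 28 lost and 10 gained the call and 30 changed sign. None of the 46 sign changes was called in either fit, and the cause of the moves below was not tested. The Y-linked term is set by KO lung CD11b DC replicate 1, so moves with it in other cells are not sex adjustments within those cells.

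The count of lectins called in KO spleen CD11b DC went from 0 to 3 with only the groups compared and to 2 with sample weights or DESeq2; in alveolar macrophages it went from 4 to 8 with only the groups compared and to 7 with sample weights. With each library left out in turn, KO counts ran from 4 to 5 in spleen CD8a DC, from 5 to 6 in lung CD11b DC, from 4 to 5 in alveolar macrophages, from 3 to 5 in inflammatory DC (5 with all libraries; 3 without WT replicate 1 or 2 or KO replicate 2 or 3) and stayed at 0 in spleen CD11b DC. The activating minus inhibitory difference in spleen CD8a DC was 0.57 with a pseudocount of 0.25 and 0.55 without length scaling, in spleen CD11b DC 1.04 with a pseudocount of 0.25, and without Clec9a 2.59 in lung CD11b DC and 1.16 in alveolar macrophages.

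With the Y-linked term, signs changed for the KO change of Clec4d in spleen CD8a DC (0.98), of Clec4a4 (0.10) and Clec9a (-0.34) in spleen CD11b DC, and of Clec4n (0.47) and Clec4e (0.16) in alveolar macrophages, for WT Clec4e in inflammatory against lung CD11b DC (0.57), and for the differences in KO change of Clec4e between lung and spleen CD11b DC (-0.12) and between inflammatory and lung CD11b DC (-0.21) and of Clec4d between macrophages and lung CD11b DC (0.68). Sample weights gave Clec4a3 in lung CD11b DC 0.02, Clec7a in inflammatory DC 0.04 and the macrophage to lung difference of Clec4d 0.05. A pseudocount of 0.25 gave Clec4d in spleen CD8a DC 0.18, and one of 8 gave the difference of Clec4e between the spleen cells -0.49. The difference of Clec4e between inflammatory and lung CD11b DC was -0.05 in edgeR and -0.04 in DESeq2.

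With each library left out in turn, KO changes that crossed 0 ran from -0.10 to 0.05 (Clec9a) and -1.56 to 1.04 (Clec4d) in spleen CD8a DC; from -0.05 to 0.36 (Clec4a3), -0.26 to 0.00 (Clec4a4), -0.03 to 0.47 (Clec9a) and -0.08 to 0.37 (Clec12a) in spleen CD11b DC; from -0.16 to 0.01 (Clec4a2) and -0.16 to 0.06 (Clec4a3) in lung CD11b DC; and from -0.10 to 0.04 (Clec7a) in inflammatory DC. WT Clec4d between the spleen cells ran from -0.74 to 1.86. Differences in KO change ran from -0.36 to 0.15 (Clec7a), -0.49 to 0.01 (Clec9a) and -0.19 to 0.67 (Clec4e) between the spleen cells, and from -0.31 to 0.04 (Clec4a4) and -0.04 to 0.82 (Clec4e) between lung and spleen CD11b DC. They ran from -0.57 to 0.14 (Clec4d) between macrophages and lung CD11b DC, and from -0.21 to 0.36 (Clec4e) and -0.40 to 0.07 (Clec4a1) between inflammatory and lung CD11b DC.

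No paired analysis was run because the numbers in the sample titles run over all samples, so that no 2 groups share a replicate number. In KO spleen, CD8a and CD11b DC had like Y-linked sums in replicate 1 (977.3 and 932) and in replicate 2 (3049 and 3295). Their Xist values were 3620 and 3092 in replicate 1 and 12.01 and 21.37 in replicate 2. Whether the 2 cell types came from the same animals is not stated, and the tests treat these libraries as unpaired.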
